A study of Mus musculus with 8 samples.

Results

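Ephrins and Eph receptors were measured in palatal shelves, which grow from the upper jaw and later form the palate, of mouse embryos at embryonic day 14.5. The family was followed through 10 listed genes, and every probe set that the array annotation gives to exactly 1 of these symbols was taken. This found 24 probe sets for 9 genes, out of 34945 probe sets with a single symbol. Ephb2, the remaining gene of the list, had no such probe set and was not analysed here. The 9 genes were the ephrins Efna1, Efna2, Efna5, Efnb1 and Efnb2 and the receptors Epha3, Epha4, Ephb3 and Ephb4. There were 8 arrays, 4 labelled R26Pax3/Pax3 (replicates 1, 3, 4 and 7) and 4 labelled Pax3 WT (replicates 2, 6, 8 and 11), each from total RNA of shelves of C57BL/6 X SV129 embryos. The WT embryos were littermates of the R26Pax3/Pax3 embryos. R26Pax3 names Pax3, a paired-box transcription factor of neural crest and muscle precursors, placed in the Rosa26 locus, whose own promoter is active in most cell types. The labels name no Cre driver, so the cells that carry extra Pax3 are not known here, and they do not say whether a sample held 1 embryo or several. The p-values therefore measure the spread between these samples.

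Eph receptors form a large family of receptor tyrosine kinases, and their ligands, the ephrins, are themselves held on the surface of neighbouring cells. Ephrins of the A class are anchored by a lipid, and those of the B class cross the membrane and have a cytoplasmic tail, so that contact can signal forward into the receptor cell and in reverse into the ephrin cell. The pathway is best known for repulsion and sorting between cell populations and for guiding axons, neural crest and vessels. In the palate, mice lacking both Ephb2 and Ephb3 have clefts. Loss of Efnb1 causes cleft palate in mice, and mutations of the human gene cause craniofrontonasal syndrome.

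Pax3 itself checks the labels. Its brightest probe set read 619 ± 88.8 in the mutant arrays against 162 ± 14.6 in wild type ones (SD, n = 4 each), with a log2 fold change of 1.83 and no overlap between groups (adjusted p of 1.70e-05 in limma). The second Pax3 probe set gave 1.96, and the third, at 82.5 ± 21.5 against 103 ± 14.0, gave -0.29 (adjusted p of 0.9997 in limma). Array medians lay between 43.5 and 44.8, and no 2 arrays were identical. All 9 palate mesenchyme markers, among them the transcription factors Osr2, Msx1 and Shox2, were above the median signal of the array on all 8 arrays. All 7 epithelial and all 7 endothelial markers were too, so the shelves held RNA of these cell types besides mesenchyme. Among 7 skeletal muscle markers, 3 lay above the median on all 8 arrays, and among 7 neuronal markers 4 did, with score differences of -0.60 and 0.65 between genotypes that lay within the spread of the arrays (exact permutation p = 0.371 and 0.20). Of 4 measured Schwann cell and glial markers, Erbb3 was above the median on all 8 arrays and Sox10 on 3. Cdh19 and Foxd3 were below the median on all 8 arrays. In whole shelves, fewer cells of a type and less RNA per cell cannot be told apart.

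No ephrin or Eph gene passed the test between genotypes. Of the 24 probe sets, 22 were bright enough to be tested, and 0 of these had an adjusted p under 0.05 in limma, where 0.0148% of all 27021 tested probe sets did. All 22 had an adjusted p of 0.9997 in limma. At an unadjusted p under 0.05 there was 1 of 22, on Epha3, where 4.86% of all tested probe sets had such a p. The 4 arrays of 1 genotype lay apart from the other 4 on 0 of 22 probe sets, against 2.73% over all tested probe sets. Fitted means were higher in R26Pax3/Pax3 on 15 of the 22 and lower on 7, and 50.3% of all tested probe sets were higher. The median log2 fold change was 0.07 over the 22 and 0.0009 over all tested probe sets. Without wild type replicate 6 the median over the 22 was 0.03, with 12 higher and 10 lower, and without mutant replicate 1 or 7 it was 0.0468 or 0.0449. Log2 fold changes ran from -0.19 on Ephb4 to 0.23 on Epha4, on the scale of log2(signal + 16), which understates the change of dim probe sets.

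The precision was enough to bound the differences. Standard errors on the 22 probe sets ran from 0.0929 to 0.196, and for 20 of them the whole 95% interval lay within 0.5 of zero on the log2 scale. The lowest bound of any interval was -0.53, on a dim probe set of Efnb2, and the highest was 0.58, on a probe set of Epha4. Both are on the scale of log2(signal + 16), so they are not folds of the signal itself. A difference inside those bounds may exist for single genes, since a p that misses the threshold does not show equal levels. The number of arrays limits this precision.

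**Figure D1:**
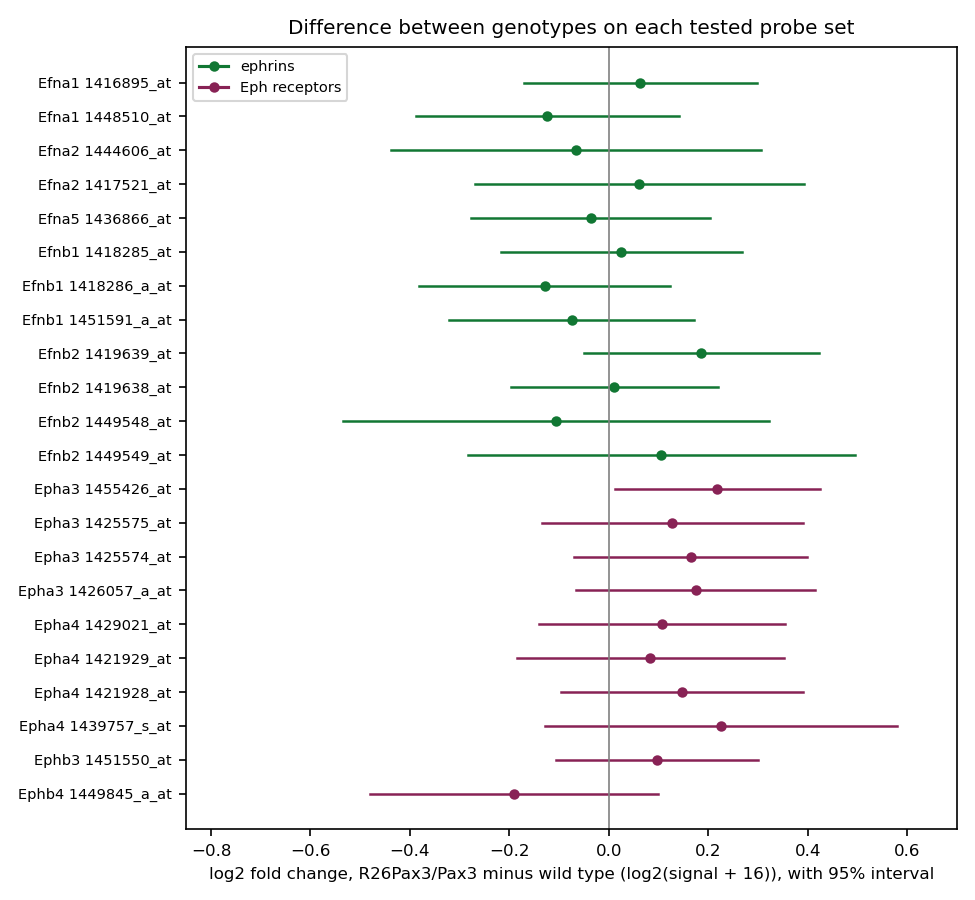
Log2 fold change (R26Pax3/Pax3 minus wild type, on log2(signal + 16)) of each of the 22 tested probe sets, with its 95% interval from limma. The 8 intervals of Epha3 and Epha4 all have their centre above zero, and only that of the brightest Epha3 probe set leaves zero out, at 0.01 to 0.43 before adjustment.

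Efna5, an A-class ephrin and a ligand of several EphA receptors, was measured on 1 usable probe set. It read 680 in wild type replicate 2, 595 in 6, 539 in 8 and 636 in 11. In R26Pax3/Pax3 it read 654 in replicate 1, 680 in 3, 499 in 4 and 563 in 7. The mutant arrays thus spanned the wild type range and reached below it. The means were 599 ± 83.3 and 612 ± 59.98 (SD, n = 4 each), which differ by -0.04 on the log2 scale (SE 0.110, 95% interval -0.28 to 0.20). The other Efna5 probe set, at 13.1 to 22.7, lay below the array median on all 8 arrays, where signal and background cannot be told apart, and was not tested.

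Efna1, first known as a gene induced in endothelial cells, was measured on 2 probe sets with differences of opposite sign. The brighter read 206, 170, 192 and 154 in wild type replicates 2, 6, 8 and 11. It read 202, 180, 179 and 193 in mutant replicates 1, 3, 4 and 7, so all mutant values lay inside the wild type range. Its log2 fold change was 0.06 (SE 0.107), and that of the dimmer probe set, at 112 ± 11.3 against 124 ± 16.5, was -0.12 (SE 0.121). A shared direction of Efna1 was not measured.

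Efna2, a further A-class ephrin, varied widely within each genotype. Its brighter probe set read 313, 201, 313 and 343 in wild type replicates 2, 6, 8 and 11, and 220, 324, 324 and 240 in mutant replicates 1, 3, 4 and 7. The low arrays, wild type 6 and mutant 1 and 7, were also the 3 with the lowest skeletal muscle marker score. That score is the mean of log2(signal + 16) over the 7 muscle markers and lay at 7.65, 7.86 and 6.52 on these arrays, against 8.65 to 9.06 on the other 5. Over the 8 arrays, Efna2 and the muscle score had a Pearson r of 0.79 (permutation p = 0.013, adjusted p = 0.311 over 72 relations) and a Spearman rho of 0.76 (permutation p = 0.0368). Without the 2 arrays farthest from the median score r was 0.97, and within genotypes it was 0.80. The part of muscle content in the values of Efna2 was not tested further. The genotype difference was -0.07 (SE 0.170, 95% interval -0.44 to 0.31), and the dimmer probe set, above the array median on 6 of 8 arrays, gave 0.06.

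**Figure D2:**
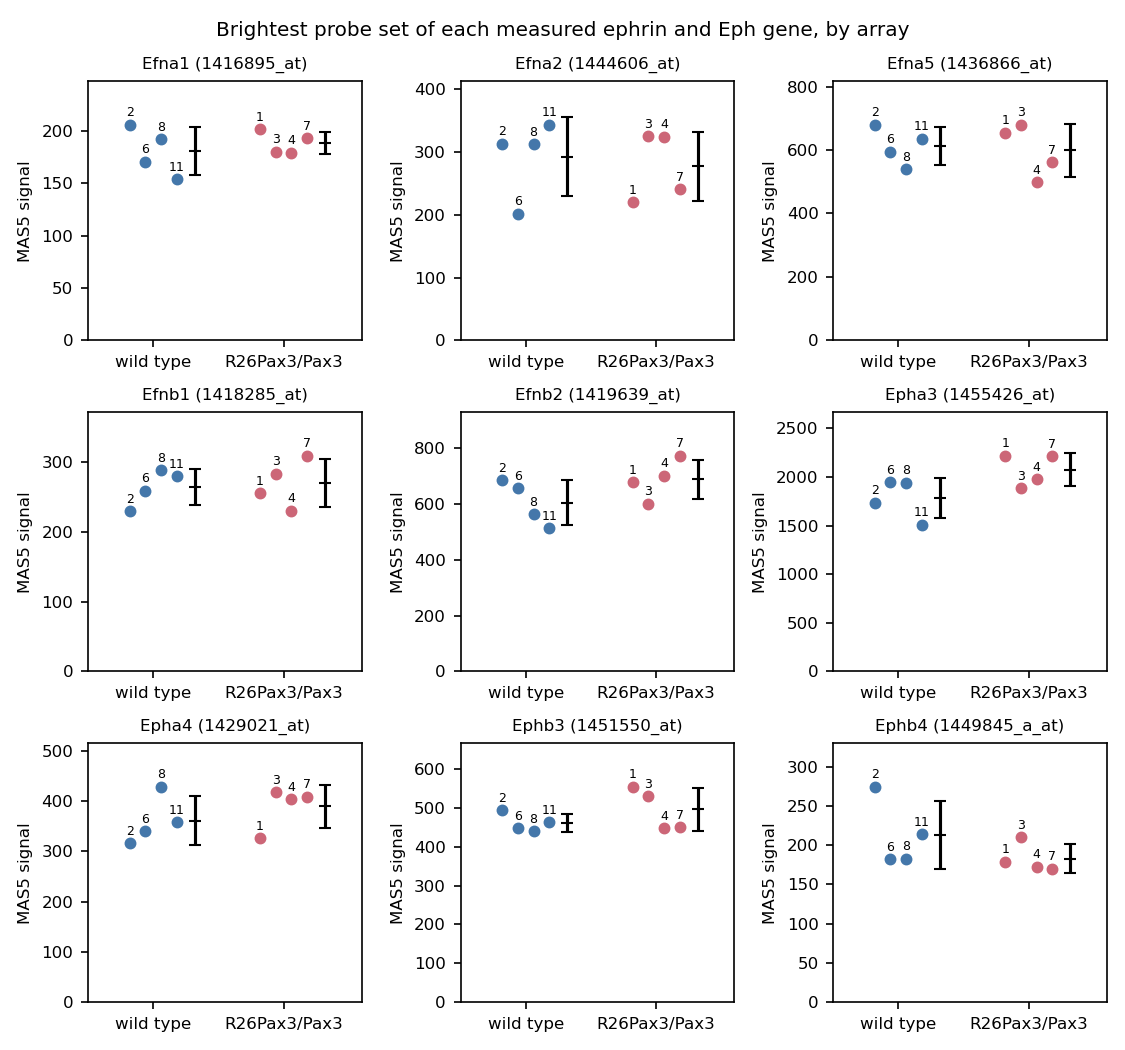
MAS5 signal (vertical axes, linear, from 0) of the brightest probe set of each of the 9 measured genes on each of the 8 arrays, numbered by replicate, with the mean and SD of 4 arrays per genotype in black. The genotypes overlap in every panel, and the 2 mutant arrays with the highest Epha3 signals, replicates 1 and 7, read 2220 and 2215.

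Efnb1, the B-class ephrin whose loss clefts the palate, was read on 3 probe sets, and the genotypes differed by less than the spread of the arrays on each. The brightest read 230 in wild type replicate 2, 259 in 6, 289 in 8 and 280 in 11. In the mutant it read 255 in replicate 1, 284 in 3, 231 in 4 and 309 in 7. Mutant replicate 7 alone passed the highest wild type array, and the rest lay within the wild type range. The log2 fold change was 0.02 (SE 0.111, 95% interval -0.22 to 0.27). On the second probe set it was -0.13 (226 ± 19.1 against 250 ± 38.1, SE 0.116), and on the third -0.07 (175 ± 19.2 against 185 ± 21.0, SE 0.113). Efnb1 lies on the X chromosome, where Xist, the RNA that silences one X in females, marks arrays of female embryos. The brightest Xist probe set read 39 to 64 on wild type replicate 11 and on mutant replicates 1 and 7, and 4200 or more on the other 5 arrays. Efnb1 read 280, 255 and 309 on those 3 arrays, inside the spread of the others apart from mutant 7, and the part of sex in its values was not tested.

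Efnb2, the B-class ephrin of arterial endothelium, was read on 4 probe sets whose differences lay on both sides of zero. On the brightest it read 686, 656, 564 and 513 in wild type replicates 2, 6, 8 and 11. The mutant replicates 1, 3, 4 and 7 read 678, 601, 701 and 773. Replicates 4 and 7 lay above the highest wild type array, and replicate 3 lay below the wild type mean. The means were 688 ± 71.0 and 605 ± 80.2 (SD, n = 4 each), a ratio of 1.14 and a log2 difference of 0.19 (SE 0.109, 95% interval -0.05 to 0.42). The second probe set, at 318 ± 23.5 against 316 ± 30.1, gave 0.01 (SE 0.0950, 95% interval -0.20 to 0.22). The remaining pair, with means under 70, gave -0.11 and 0.11 with wild type coefficients of variation of 33.3% and 32.9%, and the dimmer of these was above the array median on 4 of 8 arrays.

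Across ephrins as a whole, 6 of 12 tested probe sets were higher and 6 lower in R26Pax3/Pax3, with a median log2 fold change of -0.01. All 8 tested probe sets of the receptors Epha3 and Epha4 had higher means, with a median of 0.16, and 0 of 8 passed the test. Over all tested probe sets 50.3% were higher. The other listed receptors measured, Ephb3 and Ephb4, gave 0.10 and -0.19 on 1 probe set each. EphA receptors outside the list lay on both sides of zero, for example Epha2 at 0.21 and a probe set of Epha5 at -0.41. The difference between ligands and receptors was not tested. Probe sets of 1 gene read the same RNA samples and are not independent of each other. The count of higher probe sets of Epha3 and Epha4 was 7 of 8 without wild type replicate 11 and 8 of 8 when any other array was left out.

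Epha3, a receptor that binds A-class ephrins and is needed for the cushions of the heart, had the smallest p among the 9 listed genes measured. Its brightest probe set read 1737 in wild type replicate 2, 1948 in 6, 1943 in 8 and 1512 in 11. In R26Pax3/Pax3 it read 2220 in replicate 1, 1884 in 3, 1975 in 4 and 2215 in 7. Replicates 1, 4 and 7 lay above all wild type arrays, replicate 4 only narrowly, and replicate 3 fell between wild type arrays. The means were 2074 ± 170 and 1785 ± 207 (SD, n = 4 each), a 1.16-fold ratio. The log2 fold change was 0.22 (SE 0.0947, 95% interval 0.01 to 0.43), with an unadjusted p of 0.0400 in limma, an exact permutation p of 0.114 and an adjusted p of 0.9997 in limma. The threshold over all tested probe sets was thus not met. Without wild type replicate 11 the log2 fold change was 0.14, with an unadjusted p of 0.133 in limma. The unadjusted p was also above 0.05 without wild type replicate 2 (0.0751), mutant replicate 1 (0.0999) or mutant replicate 7 (0.106), and without the intensity trend in limma (0.0815).

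The other Epha3 probe sets had smaller differences in the same direction. They read 1154 ± 167 against 1055 ± 152, 554 ± 80.9 against 490.0 ± 39.6 and 217 ± 30.7 against 190 ± 13.1 (SD, n = 4 each). The log2 fold changes were 0.13 (SE 0.120), 0.16 (SE 0.107) and 0.17 (SE 0.110). Mutant replicate 7 was above every wild type array on all 4 probe sets of Epha3. Replicate 1 was above them on 2 of 4. Within the first 4 arrays in order of deposit, which hold 2 of each genotype, the differences on the 4 probe sets from brightest to dimmest were 0.07, -0.01, 0.23 and -0.02. Within the last 4 arrays they were 0.37, 0.26, 0.10 and 0.37. The first set of arrays therefore carried little of the difference on 3 of the 4 probe sets.

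Epha3 was set against the marker scores, and none of these relations passed after adjustment. Mutant replicate 7 had the lowest muscle score, 6.52. On the brightest Epha3 probe set r with the muscle score was -0.73 (permutation p = 0.0401, adjusted p = 0.529 over 72 relations) and rho was -0.74 (permutation p = 0.0458). Without the 2 farthest arrays r with the muscle score was -0.83, and within genotypes it was -0.69. With the score of 5 blood cell and macrophage markers r was 0.83 (permutation p = 0.0104, adjusted p = 0.311) and rho 0.83 (permutation p = 0.0154). Without the 2 farthest arrays this r was 0.63, and within genotypes it was 0.85. Of these markers, Hba-a1 was below the array median on all 8 arrays, where signal and background cannot be told apart. Osteoblast markers, all 5 of 5 above the median on every array, had a score of 9.54 to 9.84 in mutant and 9.98 to 10.3 in wild type arrays. The genotypes did not overlap on this score (exact permutation p = 0.0286, which is the minimum with 70 regroupings). This p was not adjusted over the 8 marker lists. By marker, the log2 fold change was -0.78 for Dmp1, -0.55 for Ifitm5, -0.27 for Sp7, -0.25 for Alpl and -0.09 for Ibsp, the brightest. The genotypes overlapped on each of these markers except Ifitm5. With the osteoblast score Epha3 had r = -0.61 (permutation p = 0.102, adjusted p = 0.529), rho = -0.50 (permutation p = 0.216), r = -0.62 without the 2 farthest arrays and r = -0.12 within genotypes. The epithelial score was 0.22 higher in the mutant, with overlap (exact permutation p = 0.0857). With it Epha3 had r = 0.62 (permutation p = 0.103, adjusted p = 0.529), rho = 0.69 (permutation p = 0.0694), r = 0.67 without the 2 farthest arrays and r = 0.36 within genotypes. The part of cell composition in the Epha3 values was not tested.

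**Figure D3:**
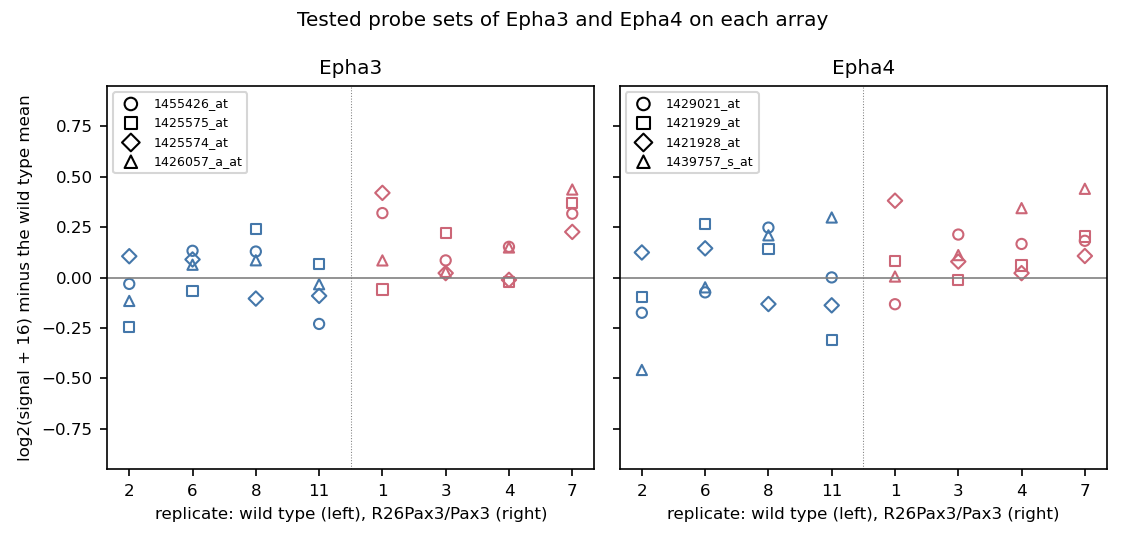
Log2(signal + 16) minus the wild type mean (vertical axis) for the 4 tested probe sets each of Epha3 and Epha4 on each array, wild type left and R26Pax3/Pax3 right of the dotted line. Mutant replicate 7 lies above zero on all 8 probe sets, and the probe sets of Epha4 spread widely on wild type replicates 2 and 11.

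Epha4, a receptor that binds ephrins of both classes and serves in axon guidance and in boundaries between cell groups, was read on 4 usable probe sets. The brightest read 316, 340, 429 and 359 in wild type replicates 2, 6, 8 and 11. It read 326, 418, 404 and 409 in mutant replicates 1, 3, 4 and 7. Wild type replicate 8 was the highest of all 8 arrays, so the genotypes overlapped. Mutant replicates 3, 4 and 7 lay above wild type replicates 2, 6 and 11, and mutant replicate 1 lay between wild type replicates 2 and 6. The log2 fold change was 0.11 (389 ± 42.8 against 361 ± 48.6, SE 0.113, 95% interval -0.14 to 0.35).

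On the other Epha4 probe sets the log2 fold changes were 0.08 (SE 0.123), 0.15 (SE 0.112) and 0.23 (SE 0.162). The last comes from a probe set whose name marks probes that may read more than 1 transcript, and its wild type values ran from 143 to 253. The intervals of all 3 include zero. Another probe set, at 26.9 ± 2.94 in mutant and 19.4 ± 5.11 in wild type, was below the array median on all 8 arrays. It cannot be told from background and no fold is given. Within the first 4 arrays deposited the brightest probe set gave -0.05 and within the last 4 it gave 0.26, so the sign was not shared.

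The promoters of Epha3, Epha4 and Ephb4 are shown, picked by their results. Epha3 and Epha4 had higher means on all 4 tested probe sets each. Ephb4 had the lowest fold change among the 9 listed genes measured. Ephb3, whose 1 tested probe set also had a higher mean, is not shown. The promoter windows are the 250 bases before the RefSeq start, 5′ to 3′ on the gene's strand, from GRCm38.p6. Capitals mark the letters ATTA, GTCAC or GTTCC on either strand, which are short cores of sites that the homeodomain and the paired domain of Pax3 can bind. The Epha3 window is chr16:63864176-63864425 (minus strand), that of Epha4 is chr1:77515089-77515338 (minus strand), and that of Ephb4 is chr5:137349859-137350108 (plus strand).
Epha3: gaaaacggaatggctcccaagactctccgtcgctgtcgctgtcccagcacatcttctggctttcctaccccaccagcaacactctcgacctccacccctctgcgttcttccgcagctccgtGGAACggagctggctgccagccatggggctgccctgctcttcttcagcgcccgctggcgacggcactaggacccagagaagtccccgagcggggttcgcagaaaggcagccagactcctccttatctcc
Epha4: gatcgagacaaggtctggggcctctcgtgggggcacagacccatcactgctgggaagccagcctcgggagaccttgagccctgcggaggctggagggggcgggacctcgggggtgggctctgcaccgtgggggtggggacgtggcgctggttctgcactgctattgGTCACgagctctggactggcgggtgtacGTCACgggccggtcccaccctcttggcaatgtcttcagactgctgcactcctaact
Ephb4: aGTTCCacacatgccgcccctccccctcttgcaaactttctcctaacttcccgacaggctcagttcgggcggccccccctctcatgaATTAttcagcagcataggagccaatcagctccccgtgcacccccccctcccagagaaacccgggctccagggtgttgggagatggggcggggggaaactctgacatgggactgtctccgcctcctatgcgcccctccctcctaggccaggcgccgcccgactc

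Epha3 holds GTTCC once, on the other strand, at 129 bases before the start. Epha4 holds GTCAC 2 times, at 84 and 56 bases before the start. Ephb4 holds ATTA once, at 163, and GTTCC once, at 249. Such short words are common. The 9 measured genes have 10 windows, because Efna1 has 2. ATTA was in 3 of 10 windows and in 54.9% of the 32851 promoters of the same length. GTCAC was in 4 of 10 against 39.8%, and GTTCC in 3 of 10 against 40.3%. A match describes letters in this window and nothing about binding.

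Ephb3, the B-class receptor that acts with Ephb2 in palate closure, had a coefficient of variation of 5.21% in wild type, the lowest of the 22 tested probe sets. Its probe set read 493, 446, 439 and 463 in wild type replicates 2, 6, 8 and 11. In mutant replicates 1, 3, 4 and 7 it read 554, 530, 448 and 450. Replicates 1 and 3 lay above every wild type array and replicates 4 and 7 lay within their range. The log2 fold change was 0.10 (495 ± 54.6 against 460 ± 23.998, SE 0.0929, 95% interval -0.11 to 0.30). Replicates 1 and 3 belong to the first 4 arrays deposited, where the difference was 0.28, and within the last 4 it was -0.09.

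Ephb3 with the endothelial markers had the highest Pearson r over the 8 arrays among the relations to marker lists. The 7 markers, among them Pecam1, Cdh5 and Emcn, had a mean log2 score of 7.49 to 7.69 over the 8 arrays. With that score Ephb3 had r = 0.93 (permutation p = 0.00218, adjusted p = 0.157 over 72 relations) and rho = 0.86 (permutation p = 0.0107). Without the 2 arrays farthest from the median score r was 0.89, and within genotypes it was 0.91. It did not pass the adjusted threshold. Of the 72 relations between 9 genes and 8 marker lists, 0 passed after adjustment and 6 had a permutation p under 0.05.

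Ephb4, the receptor of venous endothelium whose main ligand is ephrin-B2, had the lowest fold change among the 9 listed genes measured. Its probe set read 274 in wild type replicate 2, 182 in 6, 183 in 8 and 214 in 11. In mutant replicates 1, 3, 4 and 7 it read 179, 210, 172 and 170.0. Wild type replicate 2 stood above the rest. Mutant replicates 1, 4 and 7 lay below every wild type array, replicate 1 only narrowly. Mutant replicate 3 lay just under wild type replicate 11. The means were 183 ± 18.6 and 213 ± 43.3 (SD, n = 4 each), a 0.858-fold ratio. The log2 fold change was -0.19 (SE 0.133, 95% interval -0.48 to 0.10). Without wild type replicate 2 it was -0.07, so this array carried most of the difference. The vessel genes Ephb4 and Efnb2 had an r of 0.43 and 0.15 with the endothelial score (permutation p = 0.292 and 0.723, adjusted p = 0.723 and 0.973, rho 0.26 and 0.17 with permutation p of 0.536 and 0.703, r without the 2 farthest arrays 0.53 and -0.13). Within genotypes r was 0.74 for Ephb4 and -0.06 for Efnb2.

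**Figure D4:**
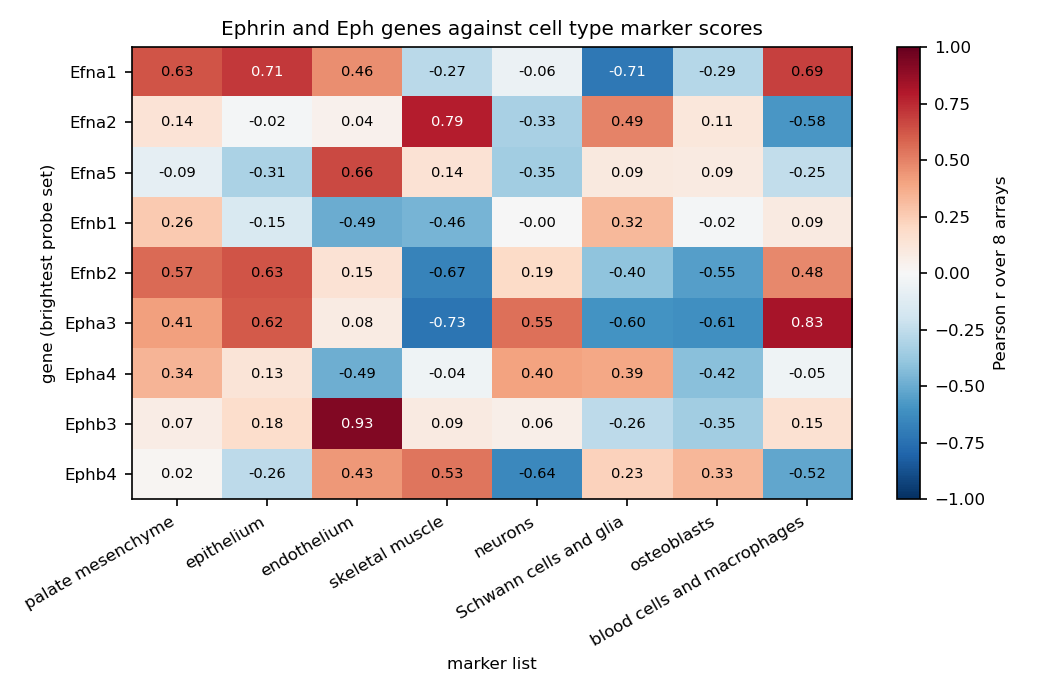
Pearson r over the 8 arrays between the brightest probe set of each measured gene (rows) and the mean log2(signal + 16) of 8 cell type marker lists (columns), coloured from -1 to 1. Ephb3 with endothelium (0.93) and Epha3 with blood cells and macrophages (0.83) are the highest, and 0 of 72 passed after adjustment.

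The 9 genes were also compared with each other over the 8 arrays. Of 36 pairings of the 9 genes, 0 passed after adjustment and 3 had a permutation p under 0.05, and 16 had a positive r. The most alike pair over the 8 arrays was Efna5 and Ephb3, with r = 0.76 (permutation p = 0.0284, adjusted p = 0.534) and rho = 0.79 (permutation p = 0.0279). Without the 2 arrays farthest from the median of Ephb3, this r was 0.82, and within genotypes it was 0.90. The least alike pair was Epha3 and Ephb4, with r = -0.67 (permutation p = 0.0756, adjusted p = 0.574) and rho = -0.90 (permutation p = 0.00456). Without the 2 arrays farthest from the median of Ephb4, this r was -0.63, and within genotypes it was -0.54. Within genotypes the lowest r was that of Efna2 and Epha3, at -0.76. All arrays share their scaling, and the genes come from the same RNA.

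The signs of the differences were also read within the first 4 and the last 4 arrays in order of deposit. Within the first 4 arrays 15 of the 22 tested probe sets were higher in R26Pax3/Pax3, against 13844 of all 27021 tested. Within the last 4 arrays 11 of the 22 were, against 13156 of all tested. The 22 probe sets come from 9 genes and are not independent of each other. The sign was the same in both sets for 6 of 22, or 27.3%, and for 43.7% of all tested probe sets. Each set holds 2 arrays of each genotype, and the labels do not say that it was a batch. The 6 were both probe sets of Efna1, 1 of Efnb2, 2 of Epha3 and 1 of Epha4. With the order of deposit as a block in the fit, 0 of 22 passed (smallest adjusted p of 0.882 in limma).

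**Figure D5:**
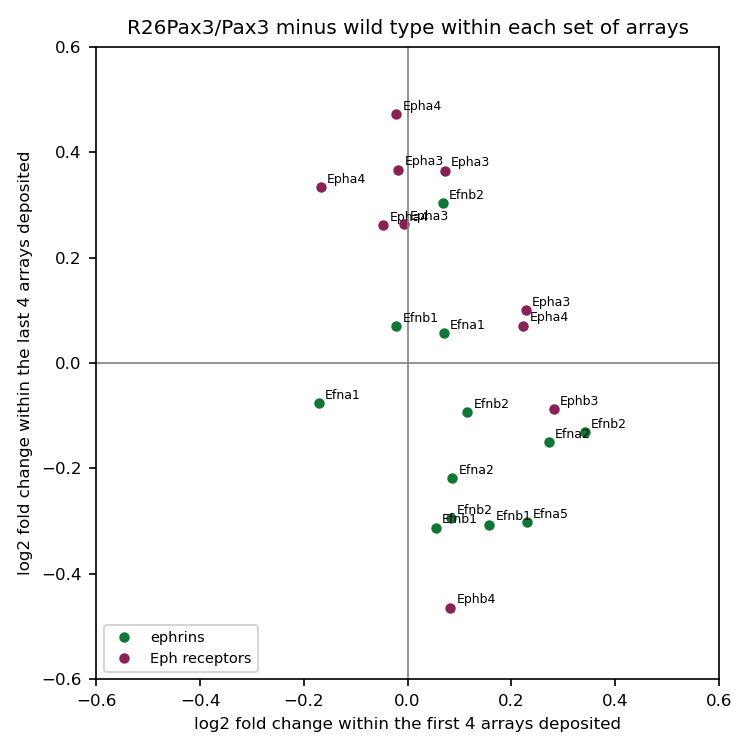
Log2 fold change (R26Pax3/Pax3 minus wild type, log2(signal + 16)) within the first 4 arrays deposited (horizontal axis) against that within the last 4 (vertical axis), 2 arrays per genotype in each, for the 22 tested probe sets. The sign is the same in both sets for 6 points, and Ephb4 at 0.08 and -0.46 lies far from the diagonal.

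Other ephrins and Eph receptors were examined as well. Of 12 further family genes, all had a probe set and 9 were bright enough on 15 of 21 probe sets. On these, 10 probe sets were higher and 5 lower, against 50.3% higher over all tested probe sets. Their median log2 fold change was 0.06. In limma 0 passed, and 1 of the 15 had an unadjusted p under 0.05, against 4.86% over all tested probe sets. This 1 was a probe set of Epha5, a receptor of axon guidance. It read 38.5 ± 8.85 against 57.2 ± 15.5, or -0.41 on the log2 scale (SE 0.187, exact permutation p = 0.114). This dim probe set was above the array median on 4 of 8 arrays. The other tested Epha5 probe sets gave 0.13 and -0.27. Efnb3, the remaining B-class ephrin, read 180 ± 24.8 against 211 ± 28.0, with -0.21 (SE 0.126). The receptors Epha7, at 0.16 on a dim probe set and -0.03 to 0.13 on its 3 others, and Epha2, at 0.21 (SE 0.222), did not pass either.

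Signalling partners of Ephs and ephrins inside the cell were also examined, of which 33 of 36 listed genes were tested. On their 84 tested probe sets 42 were higher and 42 lower, with a median log2 fold change of 0.003, and 0 passed in limma, with 4 at an unadjusted p under 0.05, a share near the 4.86% over all tested probe sets. These 4 were 2 of Cbl and 1 each of Rock1 and Src. The genes with the smallest p are given as a description, and Itsn1, the next, had an unadjusted p of 0.0634 in limma. Cbl, a ubiquitin ligase that marks activated receptors for degradation, read 351 ± 37.6 against 272 ± 57.8 (log2 fold change 0.36, SE 0.135, adjusted p of 0.968 in limma). Its other probe sets gave 0.38 and 0.06, the latter on the probe set with the highest wild type mean. Rock1, the kinase that couples RhoA to actomyosin contraction, gave 0.34 on 1 probe set (SE 0.140, adjusted p of 0.995 in limma) but 0.15, -0.01 and -0.03 on 3 brighter ones, so a higher level of the gene as a whole was not measured. Src, a kinase downstream of Ephs, gave -0.29 (SE 0.131) and -0.17 on its 2 probe sets. Itsn1, an exchange factor for Cdc42 that works with EphB receptors, gave -0.20 (SE 0.0982) on 1 probe set and -0.16 to 0.34 on its 6 other tested ones.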

How the data were processed

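Affymetrix arrays were used, and the authors made the deposited values with MAS5 (per the submitters' processing notes), as linear signal intensities per probe set, scaled so that the mean without the lowest and highest 2% was 150 on each array. The scale hides a change shared by most genes, and detection calls were not used here. Genome build and MAS5 version are not given in the sources used here. The 64 control probe sets were left out. Intensities were transformed to log2(signal + 16), and the dimmest probe sets, up to the 40th percentile of mean signal over all 8 arrays, were not tested, which left 27021 of 45037. The genotype comparison used limma 3.58.1 with R 4.3.3 (eBayes with an intensity trend, no covariates) and Benjamini-Hochberg adjustment over all tested probe sets, with a threshold of 0.05; the procedure was tested on simulated data. A positive log2 fold change means a higher mean in R26Pax3/Pax3. Each gene's brightest probe set stood for it where 1 value was needed. Exact permutation tests were two-sided over all 70 regroupings of the arrays, and correlation tests were two-sided over all orders of the 8 arrays. Names came from the array annotation, in which 34945 probe sets had a single symbol, 932 several and 9160 none, and all 9 member genes were found in the RefSeq table of GRCm38.p6. Some listed markers and signalling partners are not reported here. The named genes were all members, and up to 4 genes per pathway list by smallest p. The members, lists and tests were chosen with earlier results of these data known.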

Additional observations from a re-analysis of the deposited data

Results flagged for a closer look

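On the brightest probe set of Epha4, mutant replicate 1 read 326, apart from the other mutant arrays at 404 to 418. It was the only one of 48 groups of 4 arrays examined (24 probe sets in 2 genotypes) in which the gap from the lowest or highest array to the next passed Dixon's 95% critical share of the group's range, at 0.851. Chance marks about 1 in 20 groups, which would be 2.4 of 48.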

How the results depend on the processing

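With pseudocounts of 1 or 64, no filter, a filter at the 60th percentile, quantile normalization, the order of deposit as a block, no intensity trend, array weights, or any 1 of the 8 arrays left out, 0 member probe sets and 0 probe sets of either pathway list passed. Over all probe sets, 4 passed in each of the first 8 of these settings, and 4 to 9 with 1 array left out, the 9 without mutant replicate 3. The brightest probe sets of Efnb2, Epha3, Epha4, Ephb3 and Ephb4 kept their sign throughout, and no adjusted p fell below 0.837. Efna1 (-0.0044 to 0.1236), Efna2 (-0.2259 to 0.0315), Efna5 (-0.0992 to 0.045) and Efnb1 (-0.0407 to 0.0925) changed sign when single arrays were left out. Averaging all probe sets of a gene gave -0.0304 for Efna1 and -0.0598 for Efnb1, and array weights gave -0.0031 for Efnb1. Marker relations, with scales added after seeing the data (pseudocounts of 1 and 64, quantile normalization), gave 0 of 72 passing in each. Dim signals cannot be told from background. No paired analysis was possible because the genotypes share no replicate number in the labels.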
